A study of Saccharomyces cerevisiae with 26 samples.

Results

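The genes described here are 32 of the 5656 budding yeast genes that could be named on the arrays. They encode the enzymes that make ergosterol, the enzymes that store it as steryl esters and release it again, and a pair of transcription factors that switch sterol genes on. Members were chosen by gene symbol, with earlier results of these data known, and where a gene had several probe sets the brightest on average over the 26 arrays stands for it. All 32 were measured and passed the filter on low signal, a highest group mean above a log2 signal of 5.44, although CYB5 lay below that floor in 1 group and YEH2 in 3. By role they fall into 9 genes of the mevalonate steps, 3 of the squalene and lanosterol steps, 8 of the demethylation steps with their electron carriers, 5 of the late sterol steps, 5 of steryl ester synthesis and hydrolysis, and 2 transcription factors.

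Ergosterol is the main sterol of fungal membranes and takes the place that cholesterol holds in animal cells. Acetyl-CoA is turned into farnesyl diphosphate through mevalonate, farnesyl diphosphate is joined to squalene, and squalene is oxidised, cyclised to lanosterol and trimmed to ergosterol in steps that use molecular oxygen, heme or iron. Cells hold surplus sterol as esters in lipid droplets, and when sterol runs low the factors Upc2 and Ecm22 raise transcription of many genes of the pathway.

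The 26 arrays, Affymetrix YG_S98, held RNA of 13 groups with 2 arrays each, from Saccharomyces cerevisiae of a strain that the labels do not name. The first set, of 16 arrays in 8 groups, began with cells in rich glucose medium (YPD) and in acetate medium before sporulation (YPA). The labels of the later groups give 24 h in YPD with 2% glucose, overnight growth at 30 °C in YPA with 2% potassium acetate, and then sporulation at room temperature in 0.3% potassium acetate. Cells were sampled 4 h into sporulation (SP4, whose own label leaves out the medium). At that time the other cultures were filtered and put into plain medium for 1 h (SF5), into medium with the solvent dimethyl sulfoxide (DMSO, labelled as 0.4%) for 1 h (SD5) or 4 h (SD8), or into benomyl medium for 1 h (SB5) or 4 h (SB8). Benomyl binds tubulin and depolymerises microtubules. It came from a 30 mg/ml stock in DMSO and is labelled with the same 0.4%, so its final concentration is not clear from the labels. The second set, of 10 arrays in 5 groups, held cells 4 h into sporulation (SR4), cells 1 h (SR5) and 4 h (SR8) after filtration into plain medium, and cells filtered into chilled medium with DMSO and kept at 10 °C for 1 h (SC5) or 4 h (SC8). For SR5 and SR8 the labels name no DMSO and no temperature after filtration, so cold and solvent cannot be told apart in the second set. Differences are log2 differences of normalised signal ± the standard error (SE) of the fit, with n = 2 arrays per group. The words rose and fell, higher and lower, are used of genes for which limma's test gave a Benjamini-Hochberg adjusted p under 0.05 over all 7876 probe sets tested. The labels do not say that the 2 arrays of a group came from separate cultures, so p-values measure the spread between arrays, which may be technical. In these bulk samples fewer cells of a type and less RNA per cell cannot be told apart.

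The labelled entry into meiosis was checked against marker genes. From YPA to SP4, 5 of 9 meiotic markers rose in limma's test, 1 fell and 3 did not pass. HOP1 (4.87 ± 0.17), DMC1 (4.73 ± 0.21) and IME2 (3.83 ± 0.42), for proteins of chromosome pairing and recombination and for a meiotic kinase, were among the rises, with SPO11 and IME1. The B-type cyclin gene CLB1 fell (-0.94 ± 0.32), and NDT80, SPS1 and SPR2 gave 0.15, 0.40 and 0.75. Of 7 genes expressed in haploid cells 3 rose in the same comparison, MFA2 by 1.13 ± 0.14, MFA1 by 1.15 ± 0.16 and STE6 by 0.41 ± 0.17. The mean log2 signal of the 7 was between 5.97 and 6.85 on the arrays of all groups. The 2 arrays of a group correlated with r between 0.942 and 0.9951 over all probe sets tested. The benomyl arrays at 1 h correlated least (0.942), followed by SR5 (0.963). Among the 32 sterol genes the median absolute difference between the benomyl arrays at 1 h was 0.73, against 0.07 to 0.2 in the other groups. The benomyl arrays at 1 h lay over 2-fold apart for 5 genes, and 23 of the 32 were higher on the first array. Over all probe sets tested the standard deviation of the difference between the 2 arrays was 0.622 there, against 0.18 to 0.498 elsewhere. Each SE pools a gene's spread over all 13 groups. For benomyl at 1 h the SEs and p-values are therefore too small where its arrays differ more than those of other groups.

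**Figure D1:**
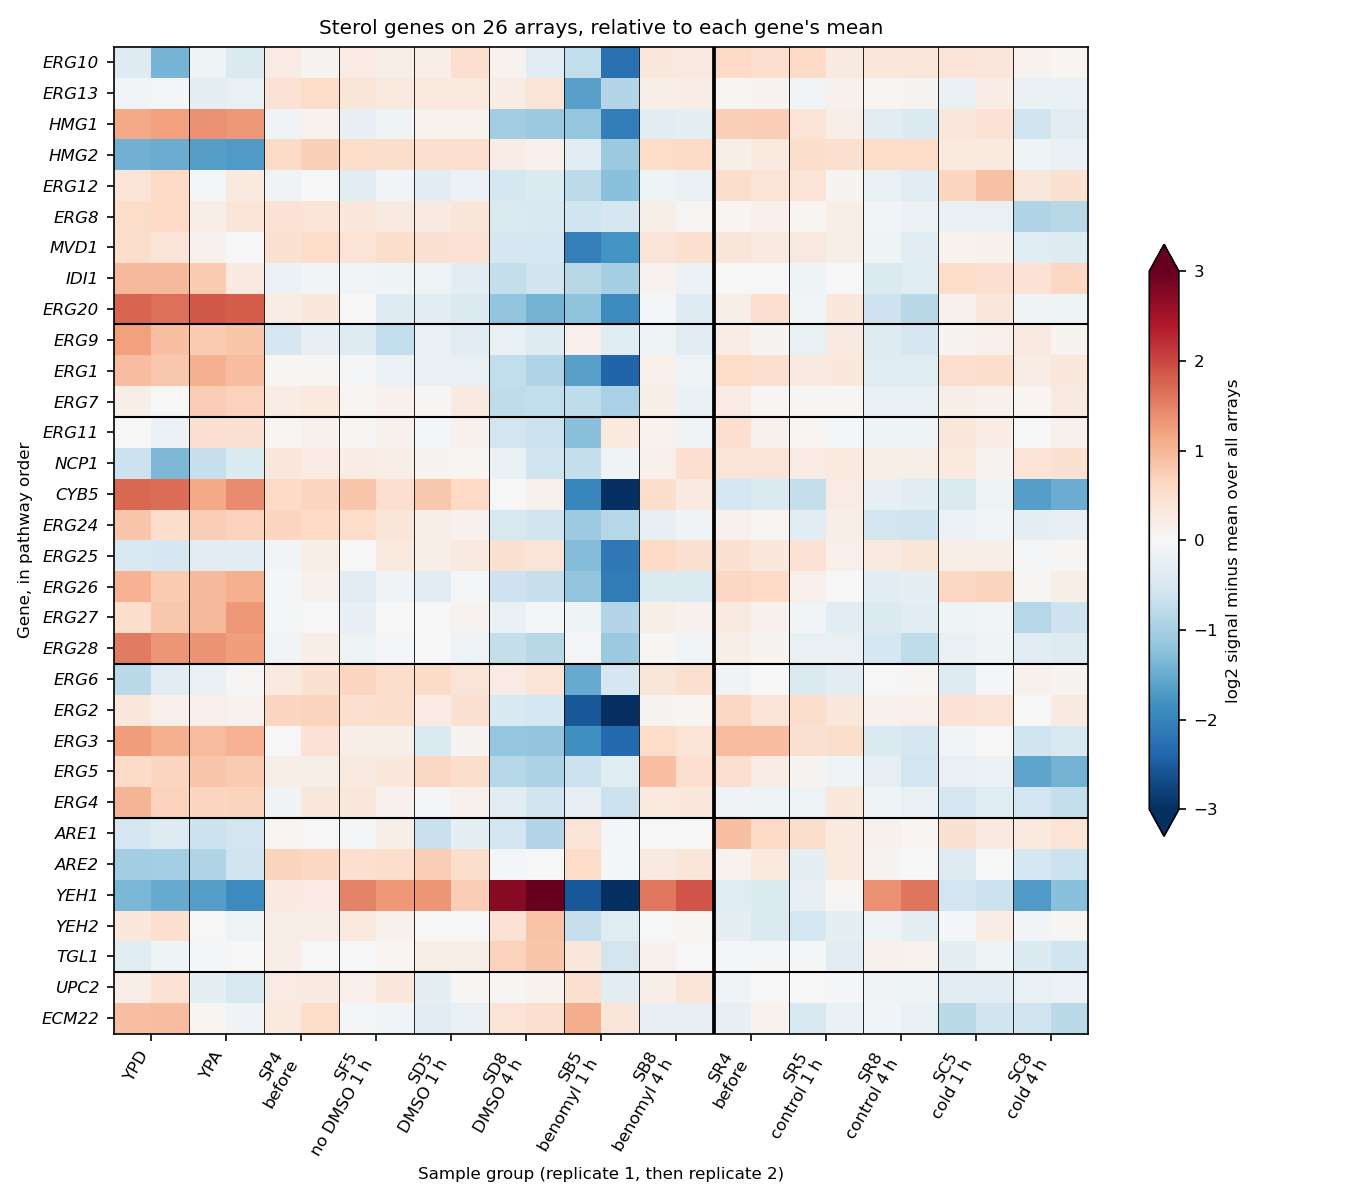
Log2 signal of each sterol gene on each array, minus that gene's mean over all 26 arrays (colour scale, -3 to 3), with genes in pathway order (rows; horizontal lines part the roles) and the 13 groups with 2 arrays each (columns; the heavy vertical line parts the first set from the second). The 2 columns of benomyl at 1 h are blue for most genes, with YEH1, ERG2 and CYB5 the deepest, while the benomyl columns at 4 h are close to those before filtration.

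The first question was how cells 4 h into sporulation responded to benomyl within 1 h. Of the 32 sterol genes 23 fell and 2 rose against DMSO, where 26.8% of all probe sets fell and 25.6% rose. The fall was at least 2-fold for 17 genes, against 10.9% of all probe sets. The median difference of the 32 was -1.05, and that of all probe sets was 0.01. On 24 genes both benomyl arrays lay below both DMSO arrays, as they did for 34.4% of all probe sets. The largest falls with both group means above the signal floor were those of YEH1, which barely cleared it in benomyl, ERG2 and MVD1. The 2 rises were those of ECM22 and ARE1.

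All 9 genes of the mevalonate steps fell, between -0.67 for IDI1 and -2.37 for MVD1. MVD1, which decarboxylates mevalonate diphosphate, gave log2 signals of 10.56 and 10.53 in DMSO and of 8.04 and 8.30 in benomyl. Both benomyl arrays were thus far below both DMSO arrays, and the benomyl arrays lay close to each other. The difference was -2.37 ± 0.11 (adjusted p = 8.34e-12), a 5.18-fold fall. ERG10, which joins acetyl-CoA units at the start of the pathway, stood at 12.21 and 12.52 in DMSO and at 11.27 and 9.77 in benomyl. Both benomyl arrays were lower, but the second far more so than the first, and the difference of -1.85 carried an SE of 0.33. ERG13, for the synthase of hydroxymethylglutaryl-CoA (HMG-CoA), fell from 11.42 and 11.44 to 9.50 and 10.25, by 1.56 ± 0.17. There the first benomyl array was the lower one.

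HMG1 and HMG2 encode paralogous HMG-CoA reductases, the rate-limiting step of sterol synthesis. HMG1 gave 10.39 and 10.40 in DMSO and 9.12 and 8.22 in benomyl, a difference of -1.73 ± 0.19. HMG2 gave 12.38 on both DMSO arrays and 11.56 and 10.76 in benomyl, a difference of -1.22 ± 0.16. For both paralogs the benomyl arrays were below the DMSO arrays, the second array more than the first. ERG20, for farnesyl diphosphate synthase, fell by 1.17 ± 0.20, the phosphomevalonate kinase gene ERG8 by 0.87 ± 0.10 and the isopentenyl diphosphate isomerase gene IDI1 by 0.67 ± 0.14. The mevalonate kinase gene ERG12 has 4 probe sets. The chosen one, whose probes can match near-identical sequences, gave -0.76 ± 0.16, others gave -0.72 and -0.64, and the fourth gave 0.10 (adjusted p = 0.783), so its value is uncertain. That probe set also gave the opposite sign to the chosen one from 1 h to 4 h in benomyl (-0.30 against 0.82), from SP4 to SD8 (0.16 against -0.40) and from SR4 to SR8 (0.13 against -0.75).

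Of the squalene and lanosterol steps, ERG1 and ERG7 fell while ERG9, for the squalene synthase that commits farnesyl diphosphate to sterols, did not pass the test. ERG1, for the oxygen-dependent squalene epoxidase, gave 9.32 and 9.34 in DMSO and 7.93 and 7.16 in benomyl, a difference of -1.78 ± 0.17. The lanosterol synthase gene ERG7 fell by 1.01 ± 0.13. ERG9 stood at 7.85 and 7.72 in DMSO and at 8.22 and 7.71 in benomyl, so the groups overlapped, and its difference was 0.18 with a 95% interval from -0.20 to 0.56.

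Among the 8 genes of demethylation and electron transfer 5 fell. CYB5, for the cytochrome that passes electrons to several sterol and fatty acid oxygenases, gave 8.34 and 8.15 in DMSO and 5.59 and 4.34 in benomyl. Both benomyl arrays were the lowest of all 26 for CYB5, and their group mean lay below the signal floor. Its measured difference was -3.28 ± 0.30, and no fold is given against a mean below the floor. The sterol methyl oxidase gene ERG25 went from 12.57 and 12.65 to 11.09 and 10.23 (-1.95 ± 0.18), and the sterol dehydrogenase gene ERG26 from 8.87 and 9.14 to 8.0 and 7.09 (-1.46 ± 0.19). The sterol reductase gene ERG24 fell by 1.14 ± 0.15 and the keto reductase gene ERG27 by 0.57 ± 0.19. ERG11, for the lanosterol demethylase that azole antifungals inhibit, gave 9.77 and 11.31 in benomyl against 10.98 and 11.15 in DMSO. Its benomyl arrays lay on either side of the DMSO arrays and differed by 1.54, the widest gap of any sterol gene. ERG11 at -0.53 (adjusted p = 0.128), the P450 reductase gene NCP1 at -0.48 (0.0536) and the scaffold gene ERG28 at -0.50 (0.0598) did not pass the test.

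All 5 genes of the late sterol steps fell. ERG2, for the sterol isomerase, gave 11.52 and 11.73 in DMSO and 8.72 and 7.66 in benomyl. Both benomyl arrays were lower than every other array of the series for ERG2. The difference was -3.44 ± 0.21 (adjusted p = 2.77e-10), a 10.8-fold fall. ERG3, for a sterol desaturase, went from 10.02 and 10.54 to 8.61 and 8.13, a difference of -1.91 ± 0.17. ERG6, for the sterol methyltransferase, went from 11.61 and 11.43 to 9.53 and 10.53, a difference of -1.49 ± 0.22 with the first benomyl array the lower one. The P450 desaturase gene ERG5 fell by 1.08 ± 0.15 and ERG4, for the last reductase of the pathway, by 0.49 ± 0.18.

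The genes of steryl ester turnover divided. YEH1, for a steryl ester hydrolase, gave 9.76 and 9.19 in DMSO and 5.91 and 5.0 in benomyl. Both benomyl arrays were below every other array of the series, YPD and YPA included. The measured difference was -4.02 ± 0.24 (adjusted p = 1.86e-10), or 16.2-fold. The second benomyl array lay below the signal floor and the benomyl mean barely above it, so the size of the fall is uncertain for YEH1. Its paralog YEH2 gave 5.66 and 5.68 in DMSO and 4.99 and 5.31 in benomyl, close to the signal floor throughout, with a difference of -0.52 ± 0.16. TGL1, for another hydrolase, overlapped between the groups (-0.27 ± 0.19). The acyltransferases that make the esters did not fall: ARE1 rose from 7.82 and 8.21 to 8.88 and 8.46 (0.65 ± 0.16), and ARE2 overlapped between the groups (-0.37 ± 0.19). For ARE1 the level in SF5, without DMSO, was 8.44 and 8.66, and against that control its difference was 0.12 (adjusted p = 0.543). Leaving out the first DMSO array gave ARE1 0.46 (adjusted p = 0.0596), and leaving out the first benomyl array gave YEH2 -0.36 (adjusted p = 0.0947).

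Neither transcription factor gene fell with the pathway. ECM22 rose from 6.80 and 6.89 in DMSO to 8.21 and 7.49 in benomyl, a difference of 1.00 ± 0.18 (adjusted p = 0.000165). UPC2 gave 6.93 and 7.24 in DMSO and 7.69 and 6.90 in benomyl, so that its arrays overlapped (0.21, adjusted p = 0.33). Without the first benomyl array UPC2 gave -0.18, and without the second 0.61, each value resting on a single benomyl array.

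The 1 h comparison rests on benomyl arrays that differ, by more than the pooled SEs and p-values of many genes reflect. A fit to these 2 groups alone called 13 sterol genes, all lower. The share of all probe sets called in that fit is not given here, so the count has no background beside it. Leaving out either benomyl array takes their disagreement out of the fit, so counts from such fits do not bear on it. Replicate 1 of each first-set group but YPD was scanned on one day and replicate 2 on another, and within the days the median difference of the 32 was -0.87 and -0.98. All 9 meiotic markers fell in the same comparison (median -1.68), with a mean log2 signal of 6.95 to 7.76 on the benomyl arrays against 8.85 to 9.5 in DMSO and 1 marker below the floor in benomyl. Their part in the fall of the sterol genes was not tested.

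**Figure D2:**
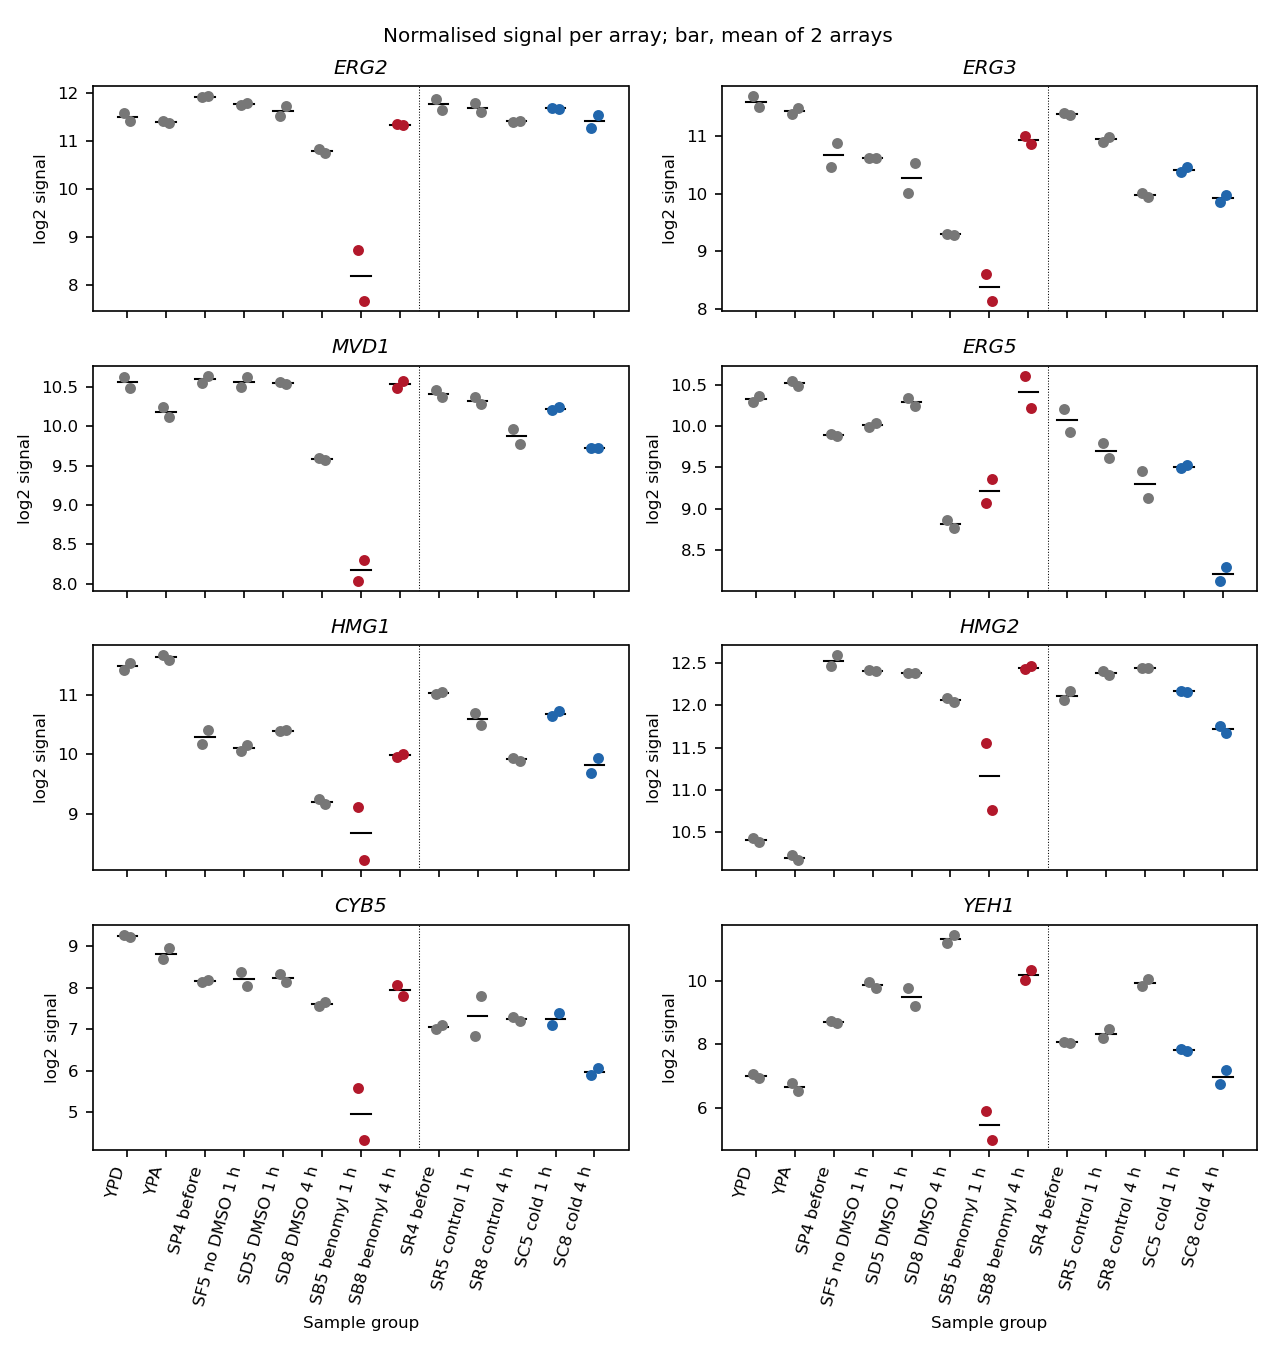
Normalised log2 signal (y axis, a different range in each panel) of 8 sterol genes on each of the 26 arrays by group (x axis); points are arrays (red benomyl, blue cold, grey all others), bars the mean of the 2 arrays, and the dotted line parts the sets. ERG2, CYB5 and YEH1 have their lowest points in benomyl at 1 h, while ERG5 in the second set is lowest in the cold at 4 h, at 8.13 and 8.30.

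The second comparison was benomyl against DMSO after 4 h. Here 13 of the 32 sterol genes were higher in benomyl and 4 were lower, where 16.6% of all probe sets were higher and 15.9% lower. The median difference was 0.39, against 0.08 over all probe sets. ERG3 and ERG5 of the late steps and ERG20 of the mevalonate steps were at least 2-fold higher, and YEH1 was at least 2-fold lower, as were 2.58% and 6.82% of all probe sets in these directions. The number of genes called was 10 without the second DMSO array at 4 h.

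Of the 9 mevalonate genes 5 were higher in benomyl at 4 h and none was lower. ERG20 gave 7.39 and 7.16 in DMSO and 8.51 and 8.20 in benomyl (1.08 ± 0.20). MVD1 gave 9.60 and 9.57 in DMSO and 10.49 and 10.58 in benomyl (0.95 ± 0.11). HMG1 gave 9.24 and 9.17 in DMSO and 9.96 and 10.01 in benomyl (0.79 ± 0.19). For these 3 genes both benomyl arrays lay above both DMSO arrays, with little spread in either group. HMG2 was at 0.38 (adjusted p = 0.0731). With the values as deposited the HMG1 difference was 0.52 (adjusted p = 0.0515) and no longer passed. ERG1 (0.82 ± 0.17) and ERG7 (0.75 ± 0.13) were higher too, while ERG9 gave 0.07.

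Of the 8 demethylation genes, NCP1 (0.72 ± 0.20) and ERG28 (0.76 ± 0.22) were higher at 4 h, and the other 6 gave positive differences that did not pass the test. CYB5 stood at 8.06 and 7.81 in benomyl and at 7.56 and 7.66 in DMSO, a difference of 0.32 (adjusted p = 0.441). Of the late genes, ERG3 gave 9.30 and 9.28 in DMSO and 11.01 and 10.86 in benomyl, a 3.13-fold difference (1.64 ± 0.17). ERG5 gave 8.86 and 8.77 in DMSO and 10.61 and 10.22 in benomyl, a 3.03-fold difference (1.60 ± 0.15). For ERG3 and ERG5 the groups were well apart, and ERG4 was higher by 0.76 ± 0.18. ERG2 was at 0.55, with an adjusted p of 0.0517.

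The ester hydrolase genes went the other way at 4 h. YEH1 gave 11.17 and 11.43 in DMSO and 10.02 and 10.34 in benomyl (-1.12 ± 0.24), YEH2 6.11 and 6.53 against 5.68 and 5.73 (-0.61 ± 0.16), and TGL1 9.24 and 9.39 against 8.69 and 8.57 (-0.68 ± 0.19). All 3 hydrolases were thus lower in benomyl with no overlap. ARE1 was higher by 0.71 ± 0.16, from 7.91 and 7.61 to 8.48 and 8.47. ECM22, which had been higher at 1 h, was lower at 4 h, at 6.88 on both benomyl arrays against 7.53 and 7.63 in DMSO (-0.70 ± 0.18). Without the second DMSO array ARE1 (0.56, adjusted p = 0.0544), YEH2 (-0.40, adjusted p = 0.133) and ECM22 (-0.65, adjusted p = 0.0585) no longer passed. Among the meiotic markers 5 of 9 were lower and 1 higher in benomyl at 4 h, with a mean signal of 9.78 to 10.02 against 10.4 to 10.41, and their part in these differences was not tested.

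The sterol genes that were lower than in DMSO at 1 h and higher at 4 h were HMG1, ERG8, MVD1, IDI1, ERG20, ERG1, ERG7, ERG3, ERG5 and ERG4. They are 10 of the 32 sterol genes, and 4.39% of all probe sets showed that pair of calls. They make up 10 of the 23 sterol genes that fell at 1 h, against 346 of the 2107 probe sets that fell. Of the 13 sterol genes that were higher at 4 h they make up 10, against 346 of 1309 probe sets. YEH1 and YEH2 were lower at both times and ARE1 was higher at both. The difference between the benomyl effects at 4 h and at 1 h, tested as a contrast of its own, was positive for 26 genes and negative for ECM22, where 24.2% and 21.5% of all probe sets were called. Its median was 1.47, against 0 over all probe sets.

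**Figure D3:**
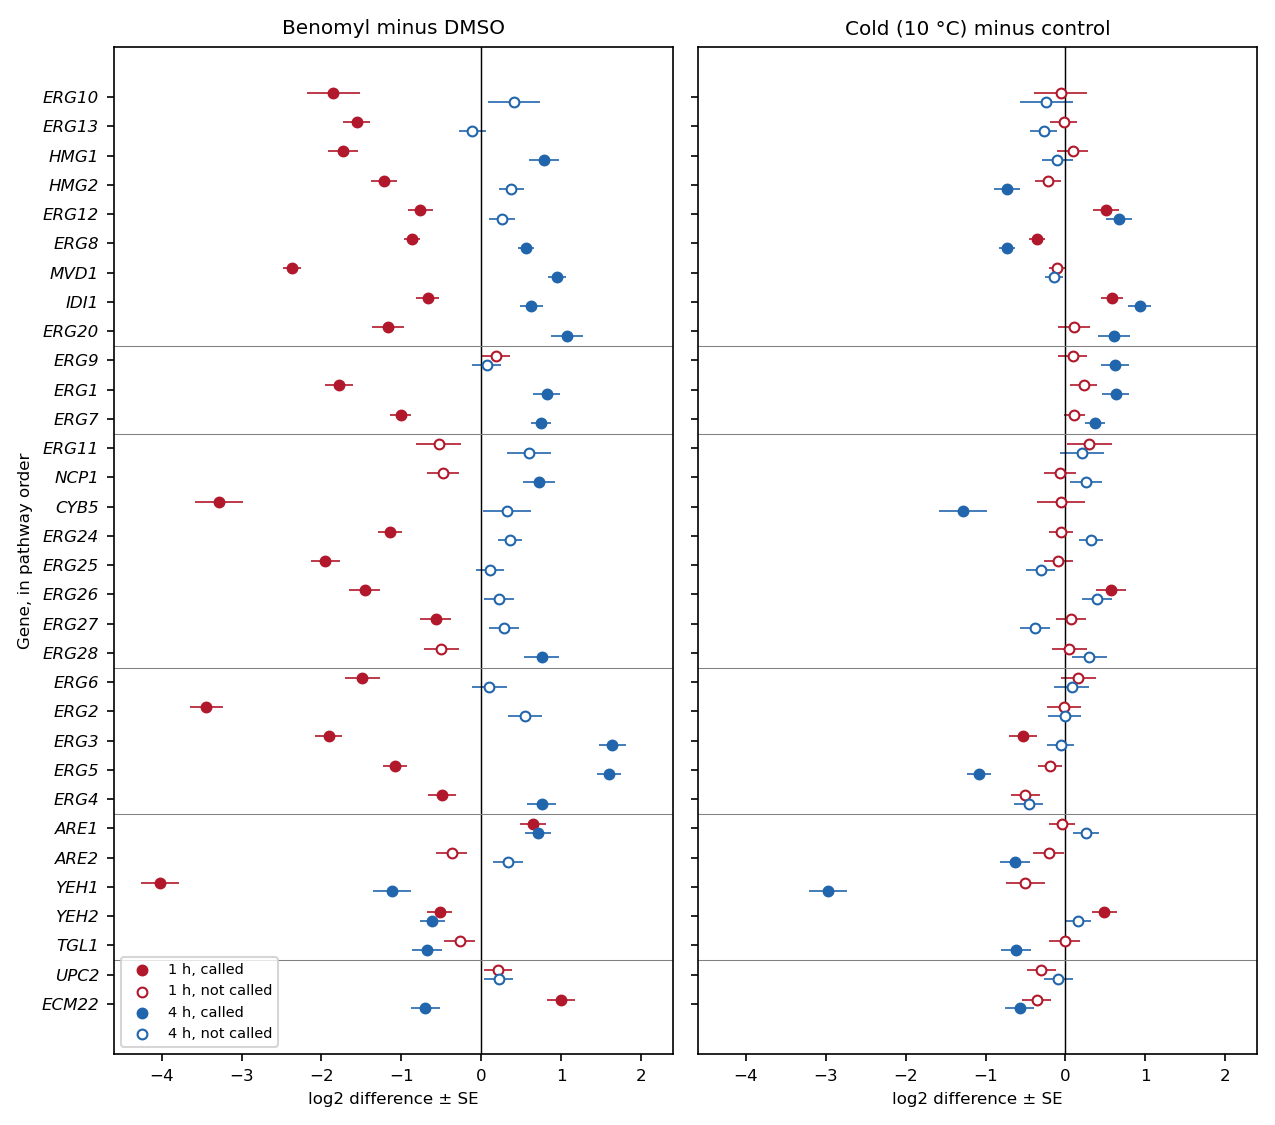
Log2 difference ± SE (x axis) of each sterol gene (y axis, pathway order) for benomyl minus DMSO (left) and for 10 °C minus control (right), at 1 h (red) and 4 h (blue); filled points passed limma's test at an adjusted p under 0.05, open points did not. On the left most red points lie below 0 and most blue points above it. On the right the points lie on both sides of 0, with YEH1, CYB5 and ERG5 at 4 h the lowest and IDI1 at 4 h the highest.

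The controls themselves moved between the times. In DMSO 14 sterol genes fell from 1 h to 4 h and 4 rose, where 25.8% of all probe sets fell and 17.8% rose, and the median was -0.46 against -0.15. ERG5 fell by 1.48 ± 0.15, HMG1 by 1.19 ± 0.19, ERG3 by 0.99 ± 0.17, MVD1 by 0.96 ± 0.11 and ERG20 by 0.93 ± 0.20. The rises were those of YEH1 (1.83 ± 0.24), ECM22 (0.73 ± 0.18), YEH2 (0.65 ± 0.16) and TGL1 (0.59 ± 0.19). All 3 hydrolase genes thus rose, while of the acyltransferases ARE2 fell by 0.64 ± 0.19.

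Over the same hours 25 sterol genes rose in benomyl and ECM22 fell (-0.97 ± 0.18), where 25.5% of all probe sets rose and 24% fell. YEH1 rose by 4.72 ± 0.24, ERG2 by 3.15 ± 0.21, CYB5 by 2.97 ± 0.30, ERG3 by 2.56 ± 0.17 and MVD1 by 2.36 ± 0.11. At 1 h in benomyl the YEH1 mean lay barely above the signal floor and the CYB5 mean below it. A fit to these 2 groups alone called 10 genes, all rising, and the share of all probe sets called in it is not given here.

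Benomyl and DMSO cells at 4 h were also set against SP4, the cells before filtration. These comparisons were added after the others had been seen, and they share the SP4 arrays. In benomyl 2 genes were higher than in SP4 and 3 lower (8.51% and 10.2% of all probe sets), with a median of -0.07 against -0.06. In DMSO 3 were higher and 19 lower (18.3% and 31.6% of all probe sets), with a median of -0.62 against -0.18, and as deposited 4 were higher and 11 lower. MVD1 gave 10.55 and 10.64 in SP4, 10.49 and 10.58 in benomyl at 4 h, and 9.60 and 9.57 in DMSO at 4 h. The benomyl arrays overlapped those of SP4, and the DMSO arrays lay below both. The direct test between benomyl and DMSO at 4 h is the comparison given above. The genes that differed from SP4 in benomyl were YEH1 (1.48 ± 0.24) and ERG5 (0.53 ± 0.15), which were higher, and ERG24 (-0.79 ± 0.15), ECM22 (-0.66 ± 0.18) and ERG8 (-0.31 ± 0.10), which were lower. That count of 5 was 13 with array weights.

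**Figure D4:**
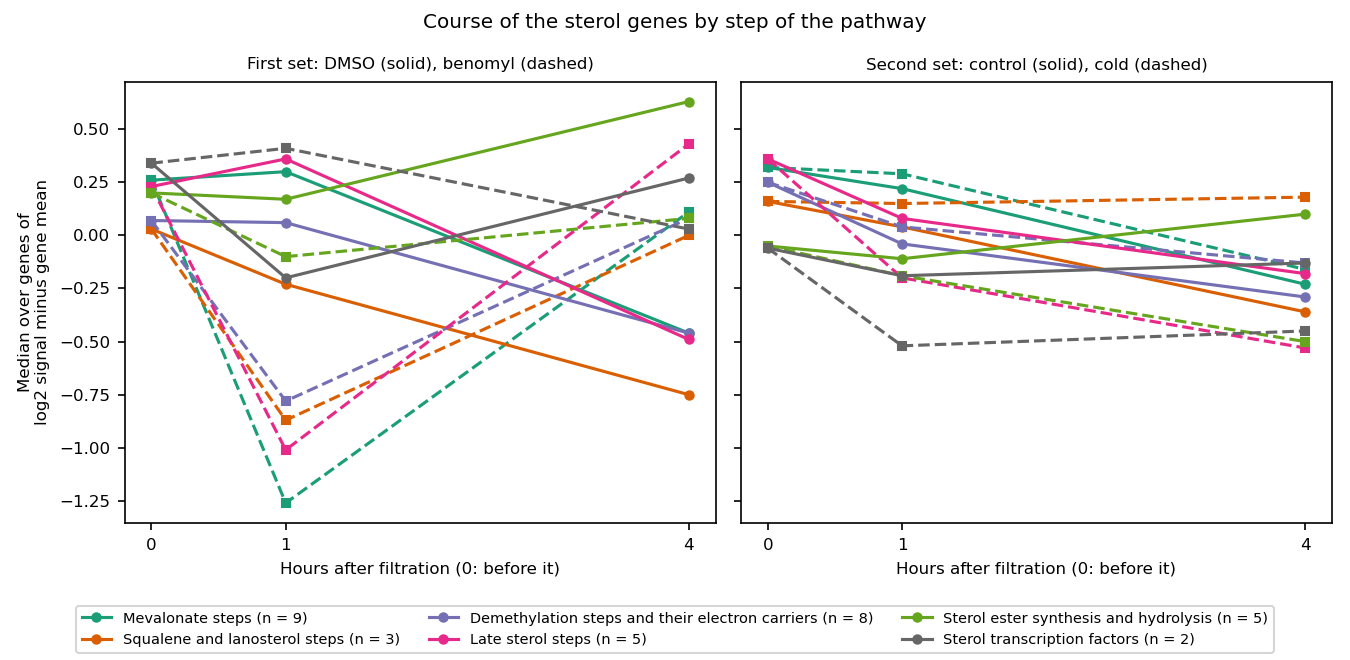
Median over the genes of each role (y axis, log2 signal minus each gene's mean over the 13 groups) against hours after filtration (x axis; 0 is SP4 or SR4, before it), with DMSO solid and benomyl dashed on the left, control solid and cold dashed on the right. The biosynthetic roles dip at 1 h in benomyl and then stand above DMSO at 4 h, while the cold curves stay closer to their controls at 1 h.

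After 1 h at 10 °C the sterol genes were called about as often as all probe sets. Against SR5, 4 were higher (11.7% of all probe sets) and 2 were lower (8.35%), with a median of -0.03 that equalled that of all probe sets. IDI1 (0.58 ± 0.14), ERG26 (0.57 ± 0.19), ERG12 (0.51 ± 0.16) and YEH2 (0.49 ± 0.16) were the higher ones, and ERG3 (-0.53 ± 0.17) and ERG8 (-0.35 ± 0.10) the lower. The YEH2 mean in SR5, 5.29, lay below the signal floor. For ERG12 other probe sets gave -0.46 (adjusted p = 0.255), 0.42 (0.0491) and 0.45 (0.0806), so that call rests on the probe set. No difference called reached 2-fold, where 3.34% of all probe sets were called that much higher and 1.05% lower. The SR5 arrays disagreed more than those of other second-set groups, for CYB5 at 6.83 and 7.79, and leaving out 1 array at a time gave between 1 and 3 calls. The values as deposited gave 3 higher and none lower, as did median centring.

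At 4 h in the cold 6 sterol genes were higher than in SR8 and 8 were lower, where 19.4% and 16.8% of all probe sets were called, and the median was -0.07 against 0.03. With the values as deposited the split was 3 higher and 9 lower. The higher genes were IDI1 (0.93 ± 0.14), ERG12 (0.67 ± 0.16), ERG1 (0.63 ± 0.17), ERG9 (0.62 ± 0.18), ERG20 (0.61 ± 0.20) and ERG7 (0.37 ± 0.13). The other ERG12 probe sets gave 0.64, 0.61 and -0.25 (adjusted p = 0.509 for the last). IDI1 stood at 7.99 and 8.06 in SR8 and at 8.87 and 9.04 in the cold. Both cold arrays were above both control arrays. ERG8 and MVD1 act between ERG12 and IDI1, and ERG8 was lower by 0.73 ± 0.10 while MVD1 gave -0.14. Among the 3 squalene and lanosterol genes all were higher, and none of the 5 late genes was.

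The lower genes in the cold at 4 h were led by YEH1, CYB5 and ERG5. YEH1 gave 9.82 and 10.05 in SR8 and 6.74 and 7.19 in the cold. The cold arrays were far below the controls, a 7.85-fold difference (-2.97 ± 0.24, adjusted p = 2.33e-08). CYB5 gave 7.30 and 7.20 in SR8 and 5.89 and 6.06 in the cold (-1.28 ± 0.30). ERG5 gave 9.46 and 9.13 in SR8 and 8.13 and 8.30 in the cold (-1.08 ± 0.15). Both genes had cold arrays below the controls with no overlap. HMG2 went from 12.44 on both arrays to 11.76 and 11.67 (-0.73 ± 0.16), while HMG1 overlapped (-0.10 ± 0.19). ARE2 gave 8.21 and 8.14 in SR8 and 7.61 and 7.48 in the cold (-0.63 ± 0.19), and ARE1 gave 8.62 and 8.54 against 8.79 and 8.90 (0.26, adjusted p = 0.231). ECM22 was lower, at 6.52 and 6.31 against 7.04 and 6.92 (-0.57 ± 0.18), as was TGL1 (-0.62 ± 0.19), and UPC2 gave -0.09. The calls of ARE2 and ECM22 were lost when the second cold array or either control array was left out, at adjusted p from 0.0552 to 0.155.

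In the cold 8 of the 9 meiotic markers were lower at 4 h, with a mean signal of 7.72 to 7.81 against 9.77 to 9.82, and their part in the sterol differences was not tested. Of the 7 haploid genes MFA2 was higher there by 2.15 ± 0.14 and BAR1 was lower (-0.39 ± 0.14). The count of 14 sterol genes fell to 8 without the second cold array or without the second control array, and rose to 23 in a fit to these 2 groups alone. The share of all probe sets called in the fit to the 2 groups alone is not given here. From 1 h to 4 h in the cold 6 sterol genes fell and none rose (2.74% of all probe sets fell and 2.43% rose), among them ERG5 (-1.29 ± 0.15), CYB5 (-1.28 ± 0.30) and HMG1 (-0.87 ± 0.19). Leaving out 1 array at a time gave 2 or 3, and CYB5 was then no longer called. The cold effect differed between 4 h and 1 h for YEH1 (-2.47 ± 0.34) and ERG5 (-0.88 ± 0.21), both lower, where 5% of all probe sets were called lower.

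Benomyl and cold were compared through the difference of their effects, each against its own control, so the drug and the set of arrays cannot be told apart in it. Nor can the solvent, since the benomyl control held DMSO and the labels of the cold control name none. The controls also differed in meiotic markers, with a mean signal of 8.85 to 9.5 in SD5 and 7.96 to 8.28 in SR5. At 1 h the effect was lower under benomyl for 21 sterol genes and higher for 2, where 21.8% and 20.4% of all probe sets were called. YEH1 (-3.51 ± 0.34), ERG2 (-3.42 ± 0.30), CYB5 (-3.22 ± 0.42) and MVD1 (-2.28 ± 0.16) had the largest differences, and ECM22 (1.36 ± 0.26) and ARE1 (0.69 ± 0.23) were the higher ones. At 4 h the effect was higher under benomyl for 10 genes and lower for 1, YEH2 (-0.77 ± 0.22), where 13.4% of all probe sets were called in each direction. ERG5 led with 2.68 ± 0.21, followed by YEH1 (1.85 ± 0.34), ERG3 (1.70 ± 0.24) and CYB5 (1.60 ± 0.42). For ERG5 the benomyl effect was 1.60 and the cold effect -1.08. The ERG5 mean in DMSO went from 10.3 at 1 h to 8.81 at 4 h, and its mean in benomyl at 4 h was 10.42. With array weights the 4 h count was 19.

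Before any treatment, cells entering sporulation were set against cells in acetate medium. From YPA to SP4, 9 sterol genes rose and 12 fell, where 28.5% and 29.5% of all probe sets did, and the median was 0.01 against -0.04. The counts were thus near those of all probe sets. With median centring 6 rose and 14 fell. The HMG-CoA reductase paralogs moved in opposite directions. HMG2 gave 10.23 and 10.17 in YPA and 12.46 and 12.59 in SP4, a 5.03-fold rise (2.33 ± 0.16). HMG1 gave 11.66 and 11.59 in YPA and 10.18 and 10.40 in SP4, a 2.53-fold fall (-1.34 ± 0.19). Neither gene's groups overlapped, and in YPD both stood near their YPA signals, HMG2 at 10.43 and 10.39 and HMG1 at 11.42 and 11.53.

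Downstream of HMG-CoA the falls at SP4 were those of ERG20 (-1.58 ± 0.20), ERG28 (-1.25 ± 0.22), ERG9 (-1.19 ± 0.18), ERG27 (-1.16 ± 0.19), ERG26 (-0.98 ± 0.19), ERG1 (-0.96 ± 0.17), ERG3 (-0.76 ± 0.17), IDI1 (-0.65 ± 0.14), ERG5 (-0.63 ± 0.15), ERG4 (-0.53 ± 0.18) and ERG7 (-0.47 ± 0.13). ERG20 gave 10.43 and 10.40 in YPA and 8.79 and 8.89 in SP4. Its sporulating arrays were clearly below. ERG28 gave 10.61 and 10.52 in YPA and 9.18 and 9.45 in SP4, ERG9 gave 8.85 and 8.89 against 7.56 and 7.81, and ERG27 gave 9.42 and 9.76 against 8.40 and 8.45. The groups did not overlap for these genes. All 3 squalene and lanosterol genes fell. The biosynthetic genes that rose were HMG2, NCP1 (0.84 ± 0.20), ERG13 (0.75 ± 0.17), ERG2 (0.52 ± 0.21) and MVD1 (0.42 ± 0.11).

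Of the 5 ester genes 3 rose at SP4 and none fell. YEH1 gave 6.79 and 6.54 in YPA and 8.72 and 8.68 in SP4 (2.04 ± 0.24). ARE2 gave 7.23 and 7.54 in YPA and 8.80 and 8.76 in SP4 (1.40 ± 0.19), and ARE1 gave 7.85 and 7.94 against 8.55 and 8.5 (0.63 ± 0.16). All 3 were higher on both sporulating arrays than on either YPA array. UPC2 rose by 0.64 ± 0.18, from 6.94 and 6.73 to 7.47 and 7.49, and ECM22 gave 0.43 (adjusted p = 0.0503).

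Between YPD and YPA 1 sterol gene was higher in acetate, ERG7 (0.64 ± 0.13), and 5 were lower, ECM22 (-0.92 ± 0.18), UPC2 (-0.69 ± 0.18), YEH2 (-0.50 ± 0.16), IDI1 (-0.46 ± 0.14) and MVD1 (-0.38 ± 0.11). Of all probe sets 15.7% were higher and 17.7% lower. ECM22 gave 8.01 and 8.04 in YPD and 7.18 and 7.02 in YPA, and UPC2 gave 7.41 and 7.64 against 6.94 and 6.73. Both factor genes were lower in acetate with no overlap. Both YPD arrays had a separate scan day, so medium and scan day cannot be told apart, and they differed from each other by 1.01 for ERG10. The split depended on the scaling, with 5 higher and 5 lower as deposited and 7 higher and 3 lower after median centring.

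Few probe sets of any kind changed from before filtration to 1 h after it, or between DMSO and no DMSO at 1 h. Filtration cannot be told apart from the hour of sporulation that passed with it. Over that hour 3 of 9 meiotic markers rose in the first set and none in the second. The first set had no group without DMSO at 4 h. From SP4 to SF5 only YEH1 passed the test, rising from 8.72 and 8.68 to 9.94 and 9.75 (1.15 ± 0.24), where 2.16% of all probe sets rose. The call was lost in 3 of the 4 fits that left out 1 array, with values of 1.05 to 1.16. DMSO for 1 h changed no sterol gene in limma's test (0.571% of all probe sets changed), although 2 had an unadjusted p under 0.05, ARE1 (-0.53) and UPC2 (-0.38), and with array weights 1 was called. In the second set no sterol gene passed between SR4 and SR5 either (2.37% of all probe sets did), with 4 at an unadjusted p under 0.05: ERG26 (-0.52), HMG1 (-0.44), ERG3 (-0.43) and ERG5 (-0.36).

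The undrugged decline of the pathway seen in DMSO had a counterpart in the second set, which shares no array with it. From SR4 to SR8, a comparison added after the others had been seen, 13 sterol genes fell and 1 rose, where 11.4% and 9.54% of all probe sets did, and the median was -0.35 against -0.04. ERG3 went from 11.40 and 11.37 to 10.01 and 9.94 (-1.41 ± 0.17), HMG1 from 11.01 and 11.04 to 9.94 and 9.89 (-1.11 ± 0.19), and ERG20 from 8.76 and 9.09 to 7.95 and 7.75 (-1.08 ± 0.20). Each was lower at 4 h with no overlap. YEH1 was the rise, from 8.08 and 8.03 to 9.82 and 10.05 (1.88 ± 0.24). From SR5 to SR8 alone 6 fell and YEH1 rose (1.60 ± 0.24), where 2.63% and 5.47% of all probe sets did. As deposited 1 rose and 1 fell, and with median centring 1 rose and 3 fell. From SP4 to SD8 in the first set YEH1 had risen by 2.60 ± 0.24 and ERG3 had fallen by 1.39 ± 0.17. Both undrugged courses also carried rising meiotic markers, 5 of 9 from SP4 to SD8, where HOP1 fell (-0.73 ± 0.17), and 4 of 9 from SR4 to SR8, where none fell. Their part was not tested.

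The sets differed at the same labelled time, too. Between SR5 and SF5, both 1 h after filtration into plain medium, 5 sterol genes were lower in the second set and 2 higher, where 11.7% and 10.8% of all probe sets were called. YEH1 (-1.51 ± 0.24), ERG6 (-0.96 ± 0.22), CYB5 (-0.90 ± 0.30), YEH2 (-0.61 ± 0.16) and ERG24 (-0.53 ± 0.15) were the lower ones. For YEH2 the SR5 mean of 5.29 lay below the signal floor. As deposited, 10 were lower and none higher. The sets were not alike in meiotic markers at that time, as 5 of 9 were lower in SR5 and none was higher. Their mean signal was 7.96 to 8.28 in SR5 against 9.39 to 9.42 in SF5, and their part in the sterol differences was not tested.

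Further genes of sterol metabolism were followed in 4 lists: sterol uptake, transport and acetylation (20 tested), other regulators of sterol synthesis (12), other branches from farnesyl diphosphate (7), and the oxygen and heme response (15). In benomyl at 1 h 4 uptake and transport genes rose and 5 fell (median -0.17), where 25.6% and 26.8% of all probe sets did. AUS1, for a plasma membrane sterol importer, fell by 1.17 ± 0.17 and PRY1, for a secreted sterol-binding protein, by 0.75 ± 0.13, while LAM4, for a sterol transfer protein of membrane contact sites, rose by 0.96 ± 0.16. Among the regulators 2 rose and 5 fell (median -0.26). NSG1, whose product stabilises Hmg2, rose by 1.24 ± 0.17 and DAP1, for a heme protein that acts with Erg11, by 1.31 ± 0.22, and SUT1, for a factor that promotes sterol uptake, fell by 1.34 ± 0.27.

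Of the 7 genes of the other farnesyl branches 1 rose in benomyl at 1 h and 4 fell (median -0.50). COQ1, for the enzyme that makes the ubiquinone side chain, rose by 2.47 ± 0.28, while NUS1 (-1.0 ± 0.14) and SRT1 (-1.10 ± 0.21), both for dolichol synthesis, fell. Among the oxygen and heme genes 3 rose and 4 fell (median -0.10). OLE1, for the fatty acid desaturase that also takes electrons through a cytochrome b5 domain, fell by 3.11 ± 0.14. TIR4, for a cell wall mannoprotein made without oxygen (2.60 ± 0.14), and COX5B, for the low-oxygen form of a cytochrome oxidase subunit (2.25 ± 0.17), rose.

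At 4 h in benomyl 4 of 20 uptake and transport genes were higher and 6 lower (median 0.16), where 16.6% and 15.9% of all probe sets were, with PRY1 at 1.09 ± 0.13 and the transfer protein genes YSP2 (-1.56 ± 0.18) and LAM6 (-1.38 ± 0.13) lower. SUT1 was lower again (-1.66 ± 0.27), NSG1 was now lower (-0.61 ± 0.17), and 1 regulator was higher, SPT23 (0.39 ± 0.12), a factor for OLE1. OLE1 was higher at 4 h (0.91 ± 0.14) and COX5B and TIR2 were lower (-1.05 ± 0.17 and -0.63 ± 0.16), among 4 oxygen and heme genes that were higher and 2 that were lower. In the other farnesyl branches 1 of 7 was called, RAM2, for a subunit of protein farnesyltransferase (0.56 ± 0.11).

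In the cold at 4 h the sterol importer genes AUS1 (-1.14 ± 0.17) and PDR11 (-1.14 ± 0.16) were lower and PRY2 was higher (1.55 ± 0.19), among 3 higher and 5 lower of 20, where 19.4% and 16.8% of all probe sets were called. SUT1 was lower by 2.12 ± 0.27 and SPT23 higher by 0.33 ± 0.12. Of the farnesyl branches 3 of 7 were lower, NUS1 (-0.78 ± 0.14), SRT1 (-0.88 ± 0.21) and RAM1 (-0.33 ± 0.12). Of the oxygen and heme genes 2 were higher and 2 lower, with TIR4 at 0.70 ± 0.14, HEM12 at -0.51 ± 0.14 and AAC3 at -0.69 ± 0.21. After 1 h in the cold 3 uptake and transport genes were higher and 4 lower, 2 regulators were higher, 1 farnesyl branch gene was higher and 1 lower, and 1 oxygen and heme gene was higher, where 11.7% and 8.35% of all probe sets were called. ROX1, for the repressor of low-oxygen genes, gave 1.16 ± 0.19.

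On entry into sporulation AUS1 rose by 2.32 ± 0.17 and PRY1 by 1.52 ± 0.13, and LAM4 fell by 1.89 ± 0.16, among 7 rises and 7 falls of 20, where 28.5% of all probe sets rose and 29.5% fell. Of the 12 regulators 6 rose and 1 fell, with MOT3 (1.39 ± 0.28), SUT1 (1.23 ± 0.27) and HRD3 (0.81 ± 0.15), the last for a part of the ligase that degrades Hmg2, all rising. SRT1 (3.34 ± 0.21), NUS1 (1.39 ± 0.14) and BTS1 (1.32 ± 0.26) led 6 rises and 1 fall among the 7 farnesyl branch genes. In the oxygen and heme list 3 rose and 2 fell, with TIR4 at 2.25 ± 0.14, TIR1 at 1.63 ± 0.16 and HEM3 at -1.27 ± 0.15.

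The likeness of each gene to the others was described by its correlation with the median of the other members over the 13 group means, which share sets and, through normalisation, arrays. Since 25 of the 32 are biosynthetic genes, that median leans towards them. It was highest for ERG3 (0.93), MVD1 (0.91), ERG24 (0.87), ERG1 (0.86), HMG1 (0.85) and ERG2 (0.83). It was -0.10 for HMG2, 0.01 for NCP1 and 0.33 for ERG9. Among the ester genes it lay between -0.25 for ARE2 and 0.30 for YEH2, and it was 0.04 for UPC2 and -0.19 for ECM22.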

How the data were processed

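The authors deposited 1 processed log2 signal per probe set and array. The method is not given in the sources used here, and base 2 was inferred from their range, 2.09 to 15.1. For the 16 arrays of the first set, deposited instrument files of another kind ("other" unit), per the file headers, hold scanner settings, of which the scan day was used. Signals were quantile normalised over 26 arrays. The 60 control probe sets and 1399 that lay at or below the 25th percentile (log2 5.44) in the mean of every group were left out. The 7876 others were fitted together in limma 3.58.1 (R 4.3.3) with 13 group means and an intensity trend (13 residual degrees of freedom), and p-values were adjusted by Benjamini-Hochberg over all of them. Calls need an adjusted p under 0.05. The script was tested on simulated data. Of all probe sets, 6504 had 1 gene, 328 several and 2443 none. Gene symbols came from the platform annotation, updated through an assembly table.

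Levels of different probe sets were not set against each other, and the number of arrays limits the precision. All 32 members are accounted for. By the rule for named genes, values per array were to be given for members called at 2-fold or more (up to 12 in the largest comparison) and for the paralog pairs. Some such members are given by their difference alone in the time courses and the differences of effects. The rule also names up to 3 genes of each further list by smallest adjusted p. The members and lists were chosen with earlier results of these data known, so a count over them is no independent evidence. Same-numbered replicates were not paired: their residuals correlated between -0.155 and 0.309 over 28 pairs of groups in the first set and between -0.289 and 0.391 over 10 in the second. Alternatives were the deposited values, median centring, other filters, no trend, array weights, the groups of a contrast alone, a block for replicate number, a block for scan day, another probe set of a gene, a control without DMSO and each array left out. No sequences are given.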

Additional observations from a re-analysis of the deposited data

Results flagged for a closer look

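Some effects differed between times or treatments in a test of the difference itself, in limma's fit with Benjamini-Hochberg adjustment and 2 arrays per group. The benomyl effect at 4 h minus that at 1 h passed for 27 of the 32 sterol genes, with the largest values for the sterol isomerase gene ERG2 (3.99), the cytochrome gene CYB5 (3.61), the desaturase gene ERG3 (3.55) and MVD1 (3.32). The cold effect at 4 h minus that at 1 h passed for 2, of which YEH1, for a steryl ester hydrolase, had the larger value (-2.47). The benomyl effect minus the cold effect passed at 1 h for 23 genes, led by YEH1 (-3.51), ERG2 (-3.42), CYB5 (-3.22) and MVD1 (-2.28). At 4 h it passed for 11, led by ERG5 (2.68), YEH1 (1.85), ERG3 (1.70) and CYB5 (1.60). Of all 7876 probe sets, 3601 passed for the change of the benomyl effect between the times and 617 for that of the cold effect. For benomyl against cold 3327 passed at 1 h and 2111 at 4 h. The CYB5 mean in benomyl at 1 h lay below the signal floor, and the YEH1 mean lay barely above it. The benomyl values at 1 h rest on arrays that differed from each other more than those of any other group. Benomyl and cold lie in different sets of arrays, with controls that differ in labelled DMSO.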

How the results depend on the processing

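Counts of sterol genes called stayed within 1.5 times in 177 recomputations with another fit or scaling and moved further in 23, and with 1 array left out they stayed in 73 and moved in 27. The cause was not tested, apart from the fewer arrays in the last case. Those that moved follow, without the share of all probe sets called in each recomputation. With the values as deposited, 10 were called between acetate and glucose medium, 3 in the cold at 1 h and 2 from 1 h to 4 h in the second set's controls. Median centring gave 10, 3 and 4. Array weights gave 3 from SP4 to SF5, 1 for DMSO against no DMSO, 0 in the cold at 1 h, 10 from 1 h to 4 h in the cold, 19 for benomyl against cold at 4 h, 3 between the sets and 13 for benomyl at 4 h against SP4. Fits to the groups of the contrast alone gave, for the same 7 comparisons but the second, 2, 2, 10, 20, 2 and 9. Such fits also gave 13 for benomyl at 1 h, 10 from 1 h to 4 h in benomyl, 23 for the cold at 4 h and 4 from 1 h to 4 h in the second set's controls. With 1 array left out the counts ran from 3 to 7 for acetate against glucose, 0 to 1 from SP4 to SF5, 10 to 17 for benomyl at 4 h, 1 to 3 and 8 to 12 for the cold at 1 h and 4 h, 2 to 3 from 1 h to 4 h in the cold, 1 to 3 for the cold effect at 4 h against 1 h, 2 to 5 from 1 h to 4 h in the second set's controls, 2 to 7 between the sets and 2 to 3 for benomyl at 4 h against SP4. The lone array was assumed to vary like the other groups.

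Among the single genes recomputed 12 values changed sign. Those of ERG12 belonged to results that passed the test (1.02 and -1.27), and the other 10 did not. ERG12's lowest probe set also changed sign in results that the report gives. UPC2 in benomyl at 1 h ran from -0.18 to 0.61 with an array left out and gave -0.17 against the control without DMSO. ERG12's lowest probe set gave -0.33 for the benomyl effect at 4 h against 1 h and 0.56 for benomyl against cold at 1 h. In the cold at 1 h ARE1 gave 0.05 as deposited, 0.07 with median centring and -0.16 to 0.08, 0.05 among them, with an array left out, where HMG1 ran from -0.01 to 0.19 and ARE2 from -0.50 to 0.09. HMG1 in the cold at 4 h gave 0.01 with median centring and ran from -0.22 to 0.02 with an array left out.

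With replicate number as a block, which the residuals did not bear out as a pairing, benomyl against DMSO called 25 genes at 1 h and 17 at 4 h, as without it, and the cold counts were 5 and 13. Another scaling moved the median of all probe sets by more than 0.1 in 5 comparisons, at most by -0.17, as deposited, between the sets. Only 2 arrays per group limit every value.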
